A study of Mus musculus with 29 samples.

Results

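The messenger RNA levels of 10 genes of the heat-shock and cold-shock responses were followed in the mouse aortic arch. The genes were taken by name, with no measured value in the rule, and each symbol was mapped to 1 Ensembl gene of the deposited count table. They make up 10 of the 56748 genes of that table and 10 of the 12353 genes that passed the filter on low counts, so all members were tested. The 8 heat-shock genes were Hspa1a, Hspa1b, Hspa8, Hsph1, Dnajb1, Hsp90aa1, Hspb1 and Hspd1, and the 2 cold-inducible genes were Cirbp and Rbm3.

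The samples came from Ercc1Δ/- mice, which carry a null and a truncated allele of the DNA-repair gene Ercc1 in every cell, and from wild-type (WT) Ercc1+/+ littermates. All mice shared an F1 hybrid background of C57BL6J and FVB, were housed one per cage, ate AIN93G pellets and lived on a shifted light-dark cycle. Both genotypes were sampled at 6 weeks on an ad libitum (AL) diet and at 22 weeks either on AL or under dietary restriction (DR), which began at 7 weeks and reached 30% from 9 weeks onward. A WT AL library of 22 weeks with 400410 counts (sample 003) was left out by the rule that chose the samples, and 28 libraries of 28 mice remained in 6 groups. These were WT AL at 6 weeks (n = 5), Ercc1Δ/- AL at 6 weeks (n = 5), WT AL at 22 weeks (n = 4), Ercc1Δ/- AL at 22 weeks (n = 4), WT DR at 22 weeks (n = 5) and Ercc1Δ/- DR at 22 weeks (n = 5), with both sexes in each.

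Heat-shock proteins are chaperones that hold unfolded proteins, fold them or hand them on to other chaperones. Their inducible genes are switched on by heat shock factors, which bind promoter elements built from inverted repeats of GAA, when unfolded proteins build up or temperature rises. Cirbp and Rbm3 encode small RNA-binding proteins whose messenger RNA rises in mild cold and falls in heat, and food restriction lowers body temperature in mice. Smooth muscle cells of the aortic wall express small heat-shock proteins at high levels.

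Letters of the kind that heat shock factors bind stand before the starts of several of these genes, which says nothing about whether a factor was bound. The RefSeq promoter table held 7 of the 10 members and no entry for Rbm3, Hspa8 or Hsp90aa1. In the 250 bases before the first listed start, 4 of the 7 held GAANNTTC or TTCNNGAA on either strand (both motifs read the same on both strands), against 12.9% of 27025 genes. With every listed start counted, 5 of the 7 held the letters, against 14.5% of genes. The sequences below show where the letters lie in those members. They are written 5′ to 3′ on the strand of the gene, from 150 to 21 bases before the start (to 121 bases before it for Hspd1), with the motif in capitals.
Hspa1a: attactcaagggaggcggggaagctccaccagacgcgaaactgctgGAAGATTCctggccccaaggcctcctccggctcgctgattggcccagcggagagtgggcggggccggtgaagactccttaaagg
Hspa1b: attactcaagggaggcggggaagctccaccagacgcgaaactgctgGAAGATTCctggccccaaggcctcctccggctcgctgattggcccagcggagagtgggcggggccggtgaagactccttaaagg
Hsph1: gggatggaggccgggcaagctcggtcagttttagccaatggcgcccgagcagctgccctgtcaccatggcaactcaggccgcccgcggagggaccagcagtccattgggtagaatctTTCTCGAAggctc
Hspb1: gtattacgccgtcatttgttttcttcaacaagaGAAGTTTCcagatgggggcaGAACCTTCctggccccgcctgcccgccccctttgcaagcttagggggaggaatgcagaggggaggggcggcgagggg
Hspd1: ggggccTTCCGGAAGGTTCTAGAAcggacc
On build GRCm39, to which the RefSeq windows matched exactly, these stretches are chr17:35191153-35191282 for Hspa1a (minus strand), chr17:35178235-35178364 for Hspa1b (minus), chr5:149559822-149559951 for Hsph1 (minus), chr5:135916623-135916752 for Hspb1 (plus) and chr1:55127212-55127241 for the second listed start of Hspd1 (minus). The Hspa1a and Hspa1b stretches were identical letter for letter, and over the full 250 bases before the start 247 were the same and 3 differed. Hspd1 was the only one of the 7 with at least 3 such units in a row (GAA and TTC alternating, with 2 bases between). A run of at least 3 was found in any window of 0.514% of genes. Cirbp and Dnajb1 held none of these letters in the listed windows, which says nothing about sites elsewhere.

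Libraries of the 28 mice held 921167 to 9616382 counts. At 22 weeks the totals of the genotypes did not overlap within a diet: 3903589 to 9616382 in WT AL against 1294980 to 3855444 in Ercc1Δ/- AL, and 2660422 to 6124471 in WT DR against 921167 to 2572523 in Ercc1Δ/- DR. Depth thus moved with genotype at this age, and calls that were lost with log2 total counts as a covariate are named beside each of the 10 members. For the other genes named below, whether a call was kept in that fit was not looked up. Because the totals do not overlap, that fit cannot tell depth and genotype apart, and a call lost in it does not say which of both a difference goes with. The 10 members were well covered in all of them, with 45 to 21115 counts per gene and library. Ercc1 itself, the targeted gene, was lower in Ercc1Δ/- mice in each of the 3 genotype comparisons (log2 fold changes -1.41, -0.97 and -1.01). All 10 smooth muscle marker genes were detected in every group. Values below are normalized counts, meaning counts scaled with TMM factors to the mean library of 3703241 counts, and a gene is called where the edgeR quasi-likelihood test gave an adjusted p (Benjamini-Hochberg) not above 0.05 together with a change of 1.2-fold or more. Interactions were called on the adjusted p alone.

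The 10 genes differed widely in level. As CPM (counts scaled to a common library size) per kilobase of merged exons, averaged over the 28 libraries, the small heat-shock gene Hspb1 stood highest at 344 ± 194 (SD, n = 28), followed by Hspa8 at 189 ± 52.1 and Hsp90aa1 at 118 ± 43.8. The lowest levels were those of the cold-inducible pair, Rbm3 at 16.8 ± 3.49 and Cirbp at 16.3 ± 4.09. Hspa1b (85.2 ± 77.8) and Hspa1a (44.5 ± 37.8) varied most, with a highest library 18.7 times and 13.2 times the lowest. For the other 8 genes that range was 2.22 (Hspd1) to 6.68 (Hspb1).

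**Figure D1:**
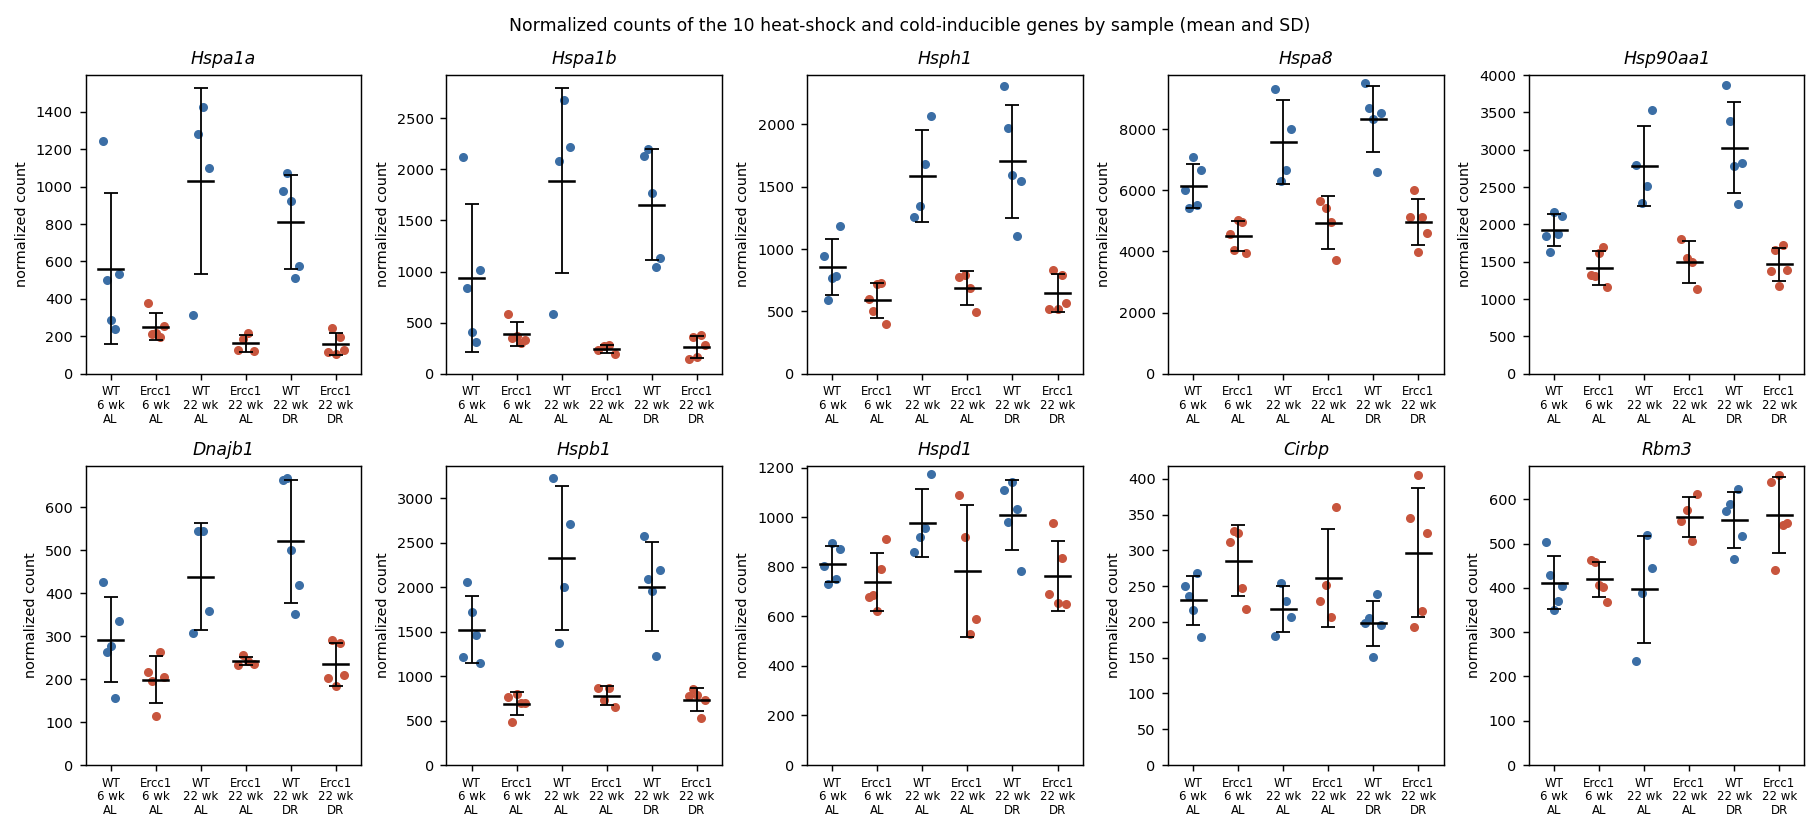
Normalized counts (y axis, linear from 0) of the 10 genes in the 28 libraries, by genotype, age in weeks (wk) and diet (blue points, WT; red points, Ercc1Δ/-), with the mean (bar) and SD (whiskers) of each group. In the 8 heat-shock genes each WT mean lies above each Ercc1Δ/- mean, while Cirbp and Rbm3 do not follow that order. The share of all tested genes with this order of means was not counted.

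At 22 weeks on AL the heat-shock genes were lower in the Ercc1Δ/- aorta. Of the 10 members, 7 were called, each of them lower, where 12.0% of all tested genes were called and 6.16% were called lower. The 7 were Hspa1a, Hspa1b, Hsph1, Hspa8, Hsp90aa1, Dnajb1 and Hspb1, and in each of them no Ercc1Δ/- library reached the lowest WT library, a separation in the lower direction seen in 9.61% of tested genes. The median log2 fold change of the 10 members was -0.93, against 0.03 over all tested genes. Hspd1, Cirbp and Rbm3 were not called. In bulk tissue a lower count can mean fewer cells of a type or less RNA per cell, and these cannot be told apart.

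Under DR the same contrast called 9 of the 10 members, where 13.0% of tested genes were called. The 8 heat-shock genes were lower (7.03% of all genes were called lower) and Cirbp was higher (5.97% were called higher). The median log2 fold change of the members was -1.11, against 0.00 over all tested genes. Libraries of the genotypes did not overlap in 7 members, each lower in Ercc1Δ/-, as in 5.20% of tested genes. At 6 weeks 1 member was called, Hspb1, where 1.70% of tested genes were called and 1.13% were called lower, and 8 members had an unadjusted p under 0.05, as had 12.8% of tested genes. All 8 heat-shock genes had a negative log2 fold change at 6 weeks, with a median of -0.56.

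**Figure D2:**
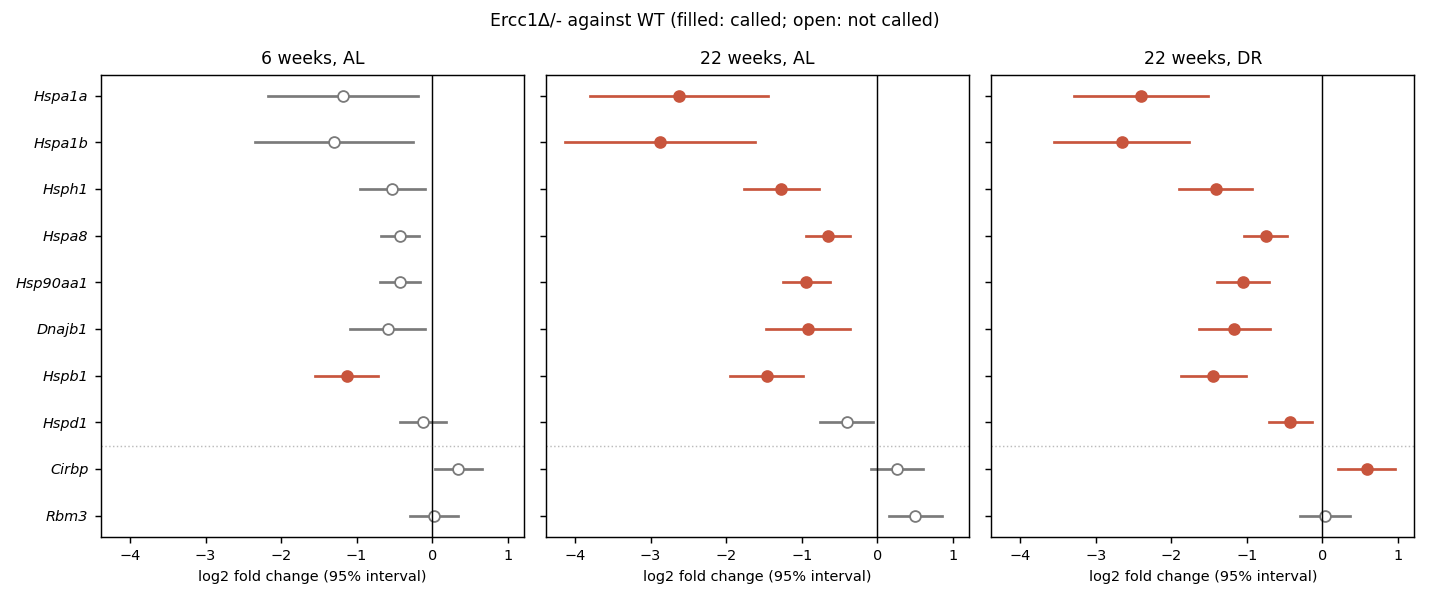
Log2 fold changes of Ercc1Δ/- against WT (x axis) with 95% intervals for the 10 genes (y axis) at 6 weeks on AL, 22 weeks on AL and 22 weeks under DR. Filled red points passed the call and open grey points did not: 1 gene at 6 weeks, 7 at 22 weeks on AL and 9 under DR are filled, and Cirbp under DR is the only filled point right of 0.

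Hspa1a and Hspa1b, the strictly inducible cytosolic HSP70 genes, changed most. They lie side by side on chromosome 17 (GRCm39, minus strand, 35188166 to 35191132 and 35175412 to 35178214), each in 1 exon. On AL at 22 weeks Hspa1a stood at 314, 1099, 1284 and 1428 in the 4 WT libraries and at 122, 128, 184 and 218 in the 4 Ercc1Δ/- libraries. The WT library with the lowest value was still above the highest Ercc1Δ/- library, although it lay far under the other 3. Means were 1031 ± 497 (SD, n = 4) and 163 ± 45.9 (SD, n = 4), and the fit with sex as a term gave a 6.17-fold difference (log2 fold change -2.62, SE 0.55, edgeR adjusted p = 0.00702). Under DR the WT libraries held 512, 575, 924, 975 and 1075 and the Ercc1Δ/- libraries 108, 118, 128, 195 and 244. The groups again did not overlap, and the difference was 5.28-fold (log2 fold change -2.40, SE 0.41, edgeR adjusted p = 0.00165). With log2 total counts as a covariate, an alternative added after the data were seen, the AL difference was -1.82 and no longer called (edgeR adjusted p = 0.0877). At 6 weeks the WT libraries were spread from 237 to 1244 and overlapped the Ercc1Δ/- range of 198 to 378, and the difference was not called (log2 fold change -1.18, edgeR adjusted p = 0.281).

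Hspa1b followed the same pattern at higher counts. WT AL libraries of 22 weeks held 589, 2077, 2215 and 2678, while Ercc1Δ/- AL libraries held 197, 236, 269 and 285. No Ercc1Δ/- library reached the lowest WT library, and the fitted difference was 7.33-fold (log2 fold change -2.87, SE 0.58, edgeR adjusted p = 0.00583). In DR mice the values were 1045, 1129, 1764, 2129 and 2195 in WT and 143, 168, 276, 358 and 382 in Ercc1Δ/-. Every WT value again lay above every Ercc1Δ/- value, by 6.30-fold in the fit (log2 fold change -2.66, SE 0.42, edgeR adjusted p = 0.000822). The AL call was lost with log2 total counts as a covariate (log2 fold change -1.87, edgeR adjusted p = 0.0597). At 6 weeks the ranges overlapped (311 to 2121 in WT and 296 to 589 in Ercc1Δ/-; log2 fold change -1.29, edgeR adjusted p = 0.259). The pair shares sequence: 56.5% of the 100-base windows of Hspa1a and 49.9% of those of Hspa1b occur in another annotated gene, so the split of reads between both is uncertain where a read pair lies wholly in shared sequence. How many reads this concerns was not measured. The Hspa1b to Hspa1a ratio of counts was 1.22 to 2.18 over the 28 libraries. With both counted as 1 gene the difference at 22 weeks was -2.78 on AL (edgeR adjusted p = 0.00592) and -2.57 under DR (edgeR adjusted p = 0.000854) on the log2 scale.

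Hspa8 (chromosome 9, 40711630 to 40731039, plus strand) encodes the constitutive HSP70, which folds newly made proteins and strips clathrin from vesicles. In WT AL libraries of 22 weeks it stood at 6301, 6668, 8016 and 9319, and in Ercc1Δ/- AL libraries at 3709, 4968, 5437 and 5654. These ranges did not meet, and the fitted difference was 1.57-fold (log2 fold change -0.65, SE 0.14, edgeR adjusted p = 0.00333). Under DR the WT values were 6592, 8321, 8536, 8703 and 9501 and the Ercc1Δ/- values 3989, 4598, 5116, 5141 and 6016, 1.68-fold lower in the fit (log2 fold change -0.75, SE 0.14, edgeR adjusted p = 0.000875). The DR call was lost with log2 total counts as a covariate (log2 fold change -0.69, edgeR adjusted p = 0.0768). At 6 weeks every Ercc1Δ/- library (3958 to 5028) was already under every WT library (5439 to 7076), as in 1.81% of tested genes, but the difference of -0.43 on the log2 scale missed the threshold (edgeR adjusted p = 0.0813). It passed without Ercc1Δ/- AL library 026 (0.0486), without a filter on low counts (0.0328) and in DESeq2 (0.0245).

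Hsph1 (chromosome 5, 149537636 to 149560156, minus strand), an HSP110 chaperone that exchanges the nucleotide of HSP70, held 1255, 1346, 1678 and 2065 in WT AL at 22 weeks and 493, 689, 774 and 788 in Ercc1Δ/- AL. No library of either genotype entered the range of the other, and Ercc1Δ/- was 2.41-fold lower (log2 fold change -1.27, SE 0.23, edgeR adjusted p = 0.00195). In DR mice WT libraries held 1107, 1545, 1591, 1972 and 2304 and Ercc1Δ/- libraries 519.9, 520.5, 564, 789 and 834. The DR difference was 2.66-fold (log2 fold change -1.41, SE 0.23, edgeR adjusted p = 0.000822), again with no overlap, and the call was lost with log2 total counts as a covariate (log2 fold change -1.15, edgeR adjusted p = 0.0684). Dnajb1 (chromosome 8, 84334811 to 84339820, plus strand), the J-domain partner that delivers clients to HSP70, read 308, 358, 544 and 546 in WT AL and 233, 236, 243 and 255 in Ercc1Δ/- AL at 22 weeks. The Ercc1Δ/- libraries lay close together, with an SD of 9.93, all below the WT range (log2 fold change -0.92, SE 0.26, edgeR adjusted p = 0.0308). This call was lost when WT library 018 or 020 or any 1 of the 4 Ercc1Δ/- AL libraries was left out (edgeR adjusted p up to 0.118), without a filter on low counts (0.0514), with thinned counts (0.0598) and with log2 total counts as a covariate (0.256, log2 fold change -0.67). Under DR Dnajb1 read 351, 419, 502, 663 and 669 in WT and 185, 202, 209.5, 284 and 291 in Ercc1Δ/-, 2.24-fold lower (log2 fold change -1.16, SE 0.22, edgeR adjusted p = 0.00218), a call lost with the same covariate (log2 fold change -1.22, edgeR adjusted p = 0.0561). At 6 weeks neither gene was called (log2 fold change -0.53, edgeR adjusted p = 0.259 for Hsph1, and -0.59, edgeR adjusted p = 0.283 for Dnajb1).

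Hsp90aa1 (chromosome 12, 110656842 to 110669166, minus strand) encodes the inducible cytosolic HSP90, which matures kinases and steroid receptors. On AL at 22 weeks it stood at 2282, 2516, 2802 and 3527 in WT and 1132, 1492, 1555 and 1810.2 in Ercc1Δ/-. WT and Ercc1Δ/- libraries were apart, by 1.92-fold in the fit, with the smallest adjusted p of the 10 members in this contrast (log2 fold change -0.94, SE 0.15, edgeR adjusted p = 0.00022). The DR libraries held 2277, 2785, 2825, 3388 and 3871 in WT and 1180.0, 1376, 1390.4, 1652 and 1720.5 in Ercc1Δ/-, a 2.07-fold difference without overlap (log2 fold change -1.05, SE 0.16, edgeR adjusted p = 0.00039), a call lost with log2 total counts as a covariate (log2 fold change -0.81, edgeR adjusted p = 0.0548). At 6 weeks WT (1635 to 2169) and Ercc1Δ/- (1156 to 1704) overlapped slightly, and the difference was not called (log2 fold change -0.42, edgeR adjusted p = 0.112). Of its 100-base windows, 23.4% occur in other annotated genes.

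Hspb1 (chromosome 5, 135916760 to 135918417, plus strand), the small heat-shock protein HSP25 that binds unfolded proteins and actin, was called in all 3 genotype comparisons. At 6 weeks the WT libraries held 1143, 1219.5, 1467, 1719 and 2057 and the Ercc1Δ/- libraries 483, 699, 701, 770.1 and 803. At 22 weeks on AL they held 1372, 2007, 2714 and 3228 against 652, 735, 861 and 870.3, and under DR 1222, 1953, 2088, 2198 and 2578 against 528, 731, 774, 791 and 858. Each of the 14 WT libraries was above each of the 14 Ercc1Δ/- libraries, whatever the age and diet, a separation that 0.332% of tested genes showed. Ercc1Δ/- was 2.19-fold lower at 6 weeks (log2 fold change -1.13, SE 0.20, edgeR adjusted p = 0.00841), 2.75-fold lower at 22 weeks on AL (log2 fold change -1.46, SE 0.23, edgeR adjusted p = 0.000471) and 2.72-fold lower under DR (log2 fold change -1.44, SE 0.20, edgeR adjusted p = 0.000239). The difference did not change detectably with age (interaction -0.33 on the log2 scale, 95% interval -0.96 to 0.30, edgeR adjusted p = 0.743) or diet (95% interval of the interaction -0.64 to 0.63, edgeR adjusted p = 0.999). Hspb1 shares 31.6% of its 100-base windows with other annotated genes, among them the pseudogene Hsp25-ps1.

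Hspd1 (chromosome 1, 55116989 to 55171038, minus strand), the mitochondrial chaperonin HSP60, differed least among the heat-shock genes. WT AL libraries of 22 weeks held 858, 919, 958 and 1175 and Ercc1Δ/- AL libraries 530.0, 589.6, 921 and 1091, with 2 Ercc1Δ/- libraries below every WT library and 2 inside the WT range, and the gene was not called (log2 fold change -0.40, edgeR adjusted p = 0.129). Under DR WT libraries held 783, 982, 1033, 1112 and 1141 and Ercc1Δ/- libraries 651, 655, 689, 834 and 976. The ranges overlapped here too, and the call was close to the threshold (log2 fold change -0.43, SE 0.14, edgeR adjusted p = 0.0454). It was lost in 10 of the 18 fits that left out 1 library (without 005, 006, 007, 010, 012, 016, 017, 020, 022 or 029, edgeR adjusted p up to 0.145), without a filter (0.0726), without a sex term (0.15), with thinned counts (0.0684) and with log2 total counts as a covariate (0.621, log2 fold change -0.23). The AL difference of Hspd1 was in turn called without Ercc1Δ/- library 004 (edgeR adjusted p = 0.0292). At 6 weeks the log2 fold change was -0.12 (edgeR adjusted p = 0.812). Hspe1, which encodes the co-chaperonin of HSP60 and overlaps it on the opposite strand, was not called at 22 weeks on AL either (log2 fold change -0.29, edgeR adjusted p = 0.44).

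The cold-inducible genes did not follow the heat-shock genes. Cirbp (chromosome 10, 79997069 to 80008626, plus strand) held 180.4, 207, 229.8 and 255 in WT AL at 22 weeks and 206, 229, 251 and 361 in Ercc1Δ/- AL, overlapping ranges without a call (log2 fold change 0.27, edgeR adjusted p = 0.331). Under DR it held 150.3, 196, 198, 206 and 238 in WT and 193, 215, 324, 346 and 405 in Ercc1Δ/-. There 3 of the 5 Ercc1Δ/- libraries lay above every WT library and 2 lay inside the WT range, and the gene was called higher (log2 fold change 0.59, SE 0.18, edgeR adjusted p = 0.0384). This call was lost without a filter on low counts (edgeR adjusted p = 0.11), with thinned counts (0.0752), with log2 total counts as a covariate (0.34, log2 fold change 0.54) and when library 005, 006, 007, 010, 016, 017, 028 or 029 was left out (up to 0.107). At 6 weeks the difference was of the same sign and not called (log2 fold change 0.34, edgeR adjusted p = 0.329).

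Rbm3 (chromosome X, 8004213 to 8012119, minus strand) held 235, 389, 445 and 520.2 in WT AL at 22 weeks and 505, 552, 576 and 612 in Ercc1Δ/- AL. Ercc1Δ/- libraries were mostly higher, with 1 WT library inside their range, and the difference missed the threshold (log2 fold change 0.51, edgeR adjusted p = 0.0598). It passed without WT library 020 (log2 fold change 0.64, edgeR adjusted p = 0.0146), without a sex term (0.0499), with all 6 groups in 1 fit (0.0245), with log2 total counts as a covariate (0.0355) and in DESeq2 (0.0471). Under DR both genotypes lay in one range, 466, 516, 573, 591 and 624 in WT and 441, 541, 547, 639.8 and 655 in Ercc1Δ/- (log2 fold change 0.03, 95% interval -0.30 to 0.36, edgeR adjusted p = 0.927). At 6 weeks WT libraries ran from 349 to 504 and Ercc1Δ/- libraries from 369 to 462. WT AL at 22 weeks was thus the group with the lowest Rbm3 mean, 397 ± 121 (SD, n = 4), with 1 library at 235.

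Ranking the 6 groups of each gene by mean gave 50 pairs of neighbouring groups, of which 11 differed by more than the larger of both SDs. In Hspb1 the step lay between WT AL at 6 weeks, the lowest WT group, and Ercc1Δ/- AL at 22 weeks. For Hsph1, Dnajb1 and Hspd1 it lay between WT AL at 22 weeks and WT AL at 6 weeks, and Hspa8 and Hsp90aa1 had a step there and another between WT AL at 6 weeks and the highest Ercc1Δ/- group. In Hspa1a and Hspa1b, whose WT groups were widely spread, the step lay below Ercc1Δ/- AL at 6 weeks. The Ercc1Δ/- groups of 22 weeks on AL and under DR were neighbours within their spread in all 8 heat-shock genes. Rbm3 had 1 step, with 3 groups of 22 weeks (Ercc1Δ/- DR, Ercc1Δ/- AL and WT DR, means 554 to 565) above both groups of 6 weeks and WT AL at 22 weeks (397 to 419). In Cirbp no neighbours differed beyond their spread.

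The age contrasts asked how the genes changed between 6 and 22 weeks on AL. In WT mice all 8 heat-shock genes had a higher mean at 22 than at 6 weeks, with log2 fold changes of 0.32 to 0.97, but none of the 10 members was called, where 0.235% of tested genes were. At an unadjusted p under 0.05 there were 6 members, against 8.65% of tested genes. Hsp90aa1 held 1635, 1848, 1872, 2107 and 2169 at 6 weeks and Hsph1 held 589, 771, 785, 947 and 1185. In both genes these WT libraries of 6 weeks lay below all 4 WT libraries of 22 weeks given above, as in 1.75% of tested genes. They came closest to the threshold (log2 fold change 0.57, edgeR adjusted p = 0.0873 for Hsp90aa1, and 0.93, edgeR adjusted p = 0.0898 for Hsph1), and DESeq2 called both. Hsp90aa1 also passed without WT library 018 (edgeR adjusted p = 0.0235), and Hsph1 with sample 003 added (0.0392). Hspa1a and Hspa1b had log2 fold changes of 0.84 and 0.97 with wide intervals, -0.16 to 1.83 and -0.09 to 2.03.

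In Ercc1Δ/- mice on AL no member was called between 6 and 22 weeks, where 4.69% of tested genes were, and 1 member had an unadjusted p under 0.05, as had 17.8% of tested genes. The 8 heat-shock genes had log2 fold changes of -0.61 to 0.24 with a median of 0.08. Hspa1a and Hspa1b were the pair with a negative change (-0.61 and -0.61), and in Hspb1 and the other 5 it was positive. Every Hspa1b library of 22 weeks lay below every one of 6 weeks, as in 3.38% of tested genes, without a call (edgeR adjusted p = 0.635). Rbm3 held 369, 402, 407, 458 and 462 at 6 weeks, below all 4 libraries of 22 weeks (as in 3.41% of tested genes), without a call (log2 fold change 0.41, edgeR adjusted p = 0.167). It passed when WT library 012 was left out (0.0291) or when only the compared groups were fitted (0.0428). The test of the difference between the age effects of both genotypes called no member, where 0.842% of tested genes were called, and 3 members had an unadjusted p under 0.05, as had 11.4%. DESeq2 also called 0 members for this interaction. All 8 heat-shock genes had a negative interaction, -1.58 to -0.23 on the log2 scale, and the smallest adjusted p was that of Hsp90aa1 (-0.52, edgeR adjusted p = 0.291). The age and genotype contrasts share libraries, so their values are not independent of each other.

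Dietary restriction left the 10 genes without a call in either genotype. In WT mice of 22 weeks 0 of 10 were called between DR and AL, where 1.28% of tested genes were, and 1 had an unadjusted p under 0.05 (12.8% of tested genes). In Ercc1Δ/- mice 0 of 10 were called, where 1.64% of tested genes were, and 0 had an unadjusted p under 0.05 (15.0% of tested genes). With both genotypes averaged the counts were again 0 called, where 3.73% of tested genes were, and 0 at an unadjusted p under 0.05 (18.7% of tested genes). DESeq2 also called 0 members in each of these 3 comparisons. The median log2 fold change of the members was 0.04 in WT and -0.01 in Ercc1Δ/-.

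Rbm3 in WT mice was the member with the smallest p for diet. Its 5 WT DR libraries held 466, 516, 573, 591 and 624, against 235, 389, 445 and 520.2 on AL. The DR values were mostly higher but the ranges overlapped, and the difference of 0.48 on the log2 scale (SE 0.16) did not pass (edgeR adjusted p = 0.185). In Ercc1Δ/- mice the Rbm3 difference was 0.00 (95% interval -0.36 to 0.36), and the interaction of genotype and diet was -0.48 (95% interval -0.98 to 0.02, edgeR adjusted p = 0.595). Cirbp had log2 fold changes of -0.14 in WT (95% interval -0.52 to 0.24) and 0.16 in Ercc1Δ/- (95% interval -0.25 to 0.57). Body temperature was not among the data analysed here.

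The precision of the diet effect differed between genes. The 95% interval of the averaged diet effect was narrowest for Hspa8 (-0.14 to 0.28 on the log2 scale) and Hspd1 (-0.22 to 0.20). For Hsp90aa1 it ran from -0.21 to 0.30 and for Hsph1 from -0.35 to 0.36. Hspa1a and Hspa1b had the widest intervals, -0.84 to 0.46 and -0.68 to 0.60, and values within them are not excluded by these libraries. The interaction of genotype and diet called 0 of the 10 members, where 0.0971% of tested genes were called, with 0 at an unadjusted p under 0.05 (8.72% of tested genes) and 0 called by DESeq2.

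**Figure D3:**
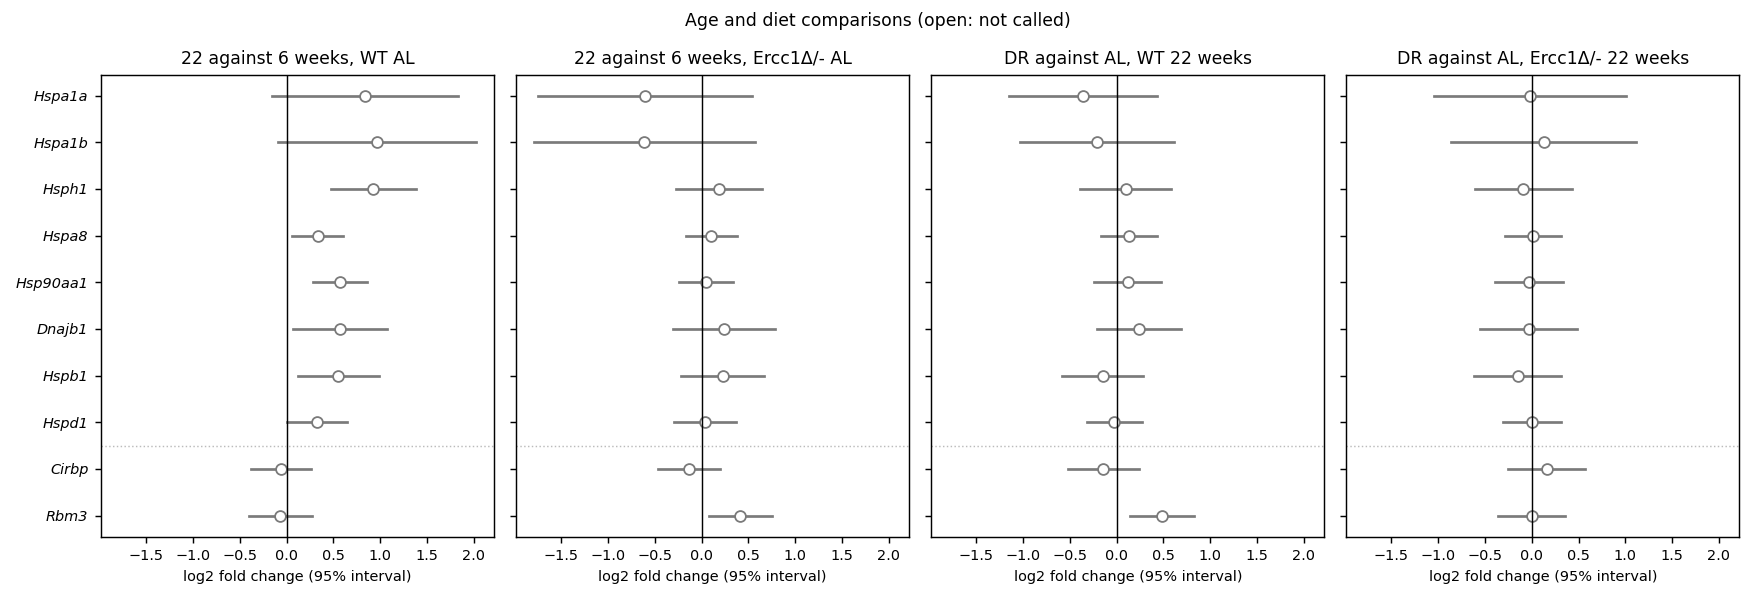
Log2 fold changes (x axis) with 95% intervals of the 10 genes (y axis) between 22 and 6 weeks on AL and between DR and AL at 22 weeks, each in WT and in Ercc1Δ/-. All points are open, since none passed the call: the WT age effects of the 8 heat-shock genes lie right of 0 at 0.32 to 0.97, and the diet effects of all members lie between -0.36 and 0.48.

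Whether the genes varied together between mice of one group was examined on log2 CPM centred on the group mean, over 28 libraries and 45 gene pairs, with 100000 permutations within groups. Both values of a pair come from the same library and share its depth. Of the 45 pairs, 10 passed an adjusted p of 0.05 for Pearson's r, 9 positive and 1 negative. Hspa1a and Hspa1b, which share sequence, rose and fell together most closely (r = 0.959, rho = 0.946, adjusted permutation p = 0.0003 and 0.000225), and both went with Dnajb1 (r = 0.731 and 0.71). A second set was formed by Hsph1 and Hsp90aa1 (r = 0.856, rho = 0.823, adjusted permutation p = 0.0003 and 0.0003), Hspa8 and Hsp90aa1 (r = 0.849) and Hsph1 and Hspa8 (r = 0.670). Across these sets, Hspa1b went with Hsph1 (r = 0.525, rho = 0.571, adjusted permutation p = 0.0416 and 0.0269), Hspa1a with Hsph1 did not pass, and Hspa1a with Hspa8 gave r = 0.00944. Hspa8 also went with Hspb1 (r = 0.535). The cold-inducible pair went together (r = 0.602, rho = 0.651, adjusted permutation p = 0.00189 and 0.0063) and Cirbp ran against Hspa8 (r = -0.627, rho = -0.577, adjusted permutation p = 0.011 and 0.0241).

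Each of these relations kept its sign without the 2 libraries farthest from the median on the x axis: r was then 0.931 for Hspa1a and Hspa1b, 0.848 for Hsph1 and Hsp90aa1, 0.525 for Cirbp and Rbm3 and -0.526 for Cirbp and Hspa8. Centred on group and sex, 3 pairs still passed, Hspa1a with Hspa1b (r = 0.957), Hspa1a with Dnajb1 (r = 0.818) and Hsph1 with Hsp90aa1 (r = 0.759). Cirbp and Rbm3 then gave r = 0.546 and Cirbp and Hspa8 r = -0.529, neither passing. Hspa1b with Dnajb1 (r = 0.772, adjusted permutation p = 0.054), Hspa8 with Hsp90aa1 (0.726, 0.0544) and Hspa8 with Hspb1 (0.65, 0.0595) missed narrowly. Hspa1b with Hsph1 (0.575, 0.14) and Hsph1 with Hspa8 (0.443, 0.247) missed more widely. Libraries were permuted within group and sex here, which allows fewer arrangements, as WT AL at 22 weeks held 1 female. A part of sex in these relations was not tested. 

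**Figure D4:**
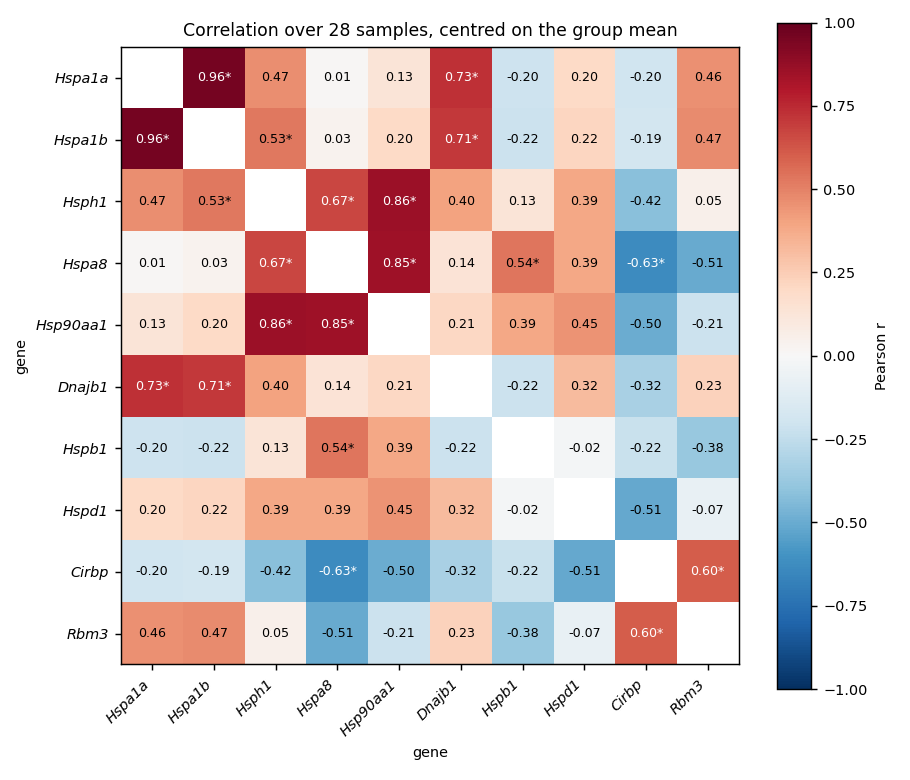
Pearson r between the 10 genes (both axes) over 28 libraries, on log2 CPM centred on the group mean. An asterisk marks the 10 pairs that passed the adjusted permutation p for both r and Spearman's rho. Hsph1, Hspa8 and Hsp90aa1 form a dark block, and Hspa1a and Hspa1b are dark with each other and with Dnajb1, which stands apart from them. Cirbp with Hspa8 is the 1 negative pair with an asterisk.

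For Hsph1, Hspa8, Hsp90aa1, Rbm3 and Cirbp the genes most like them were sought among all 12352 other tested genes, across the 28 group-centred libraries. St13, a co-chaperone of HSP70, ranked first for both Hsph1 (r = 0.88) and Hsp90aa1 (r = 0.897). Hspa8 was followed most closely by Gm15459 (r = 0.895), which shares 100-base windows with it, then Hsp90aa1 (0.849) and Ahsa1, an activator of HSP90. Nearest to Rbm3 were Csrnp1 (0.774), Klf11 (0.739) and Wee1 (0.737), and among the nearest to Cirbp were Cntln (0.846) and H3f3b (0.791). These are descriptions of likeness, chosen from the 3 highest r for each gene.

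The other genes of the chaperone network were counted in lists that hold none of the 10 members. At 22 weeks on AL, Ercc1Δ/- was lower in 6 of 16 tested genes for HSP90 and its co-chaperones (median log2 fold change -0.26), in 4 of 19 other HSP70, HSP110 and exchange factor genes (0.04), in 3 of 18 other J-domain genes (0.03), in 2 of 5 other small heat-shock genes (-0.33) and in 2 of 18 chaperonin and prefoldin genes (0.03). None of the tested genes of these 5 lists was called higher. Over all tested genes, 6.16% were called lower. The median over all tested genes was 0.03, so that the medians of the HSP90 and small heat-shock lists were lower and those of the other 3 lists lay close to it. Stip1, which links HSP70 to HSP90, changed by -0.93, edgeR adjusted p = 3e-05, and the constitutive HSP90 gene Hsp90ab1 by -0.66, edgeR adjusted p = 0.000117. Fkbp4, an immunophilin of the HSP90 complex, fell by 0.79 on the log2 scale, the J-domain gene Dnajb5 by 1.08 and Bag3, an HSP70 exchange factor of muscle, by 0.70. St13, Hspa4, Dnajb2, Dnaja1, Hspb8, Cryab, Cct6a and Cct7 were also called lower, with log2 fold changes of -0.82 (Dnaja1) to -0.33 (Cct7).

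Under DR the genotype contrast called more of them, 9 of 16, 5 of 19, 6 of 18, 5 of 5 and 5 of 18 lower in the same order of lists, where 7.03% of all tested genes were called lower. In 4 of these lists 1 gene each was higher, Fkbp5 (0.84), Hspa12b (0.45), Dnajc19 (0.55) and Clpx (0.37), where 5.97% of all tested genes were called higher. These 4 genes are named here after their values were seen, as are the genes of 6 weeks. At 6 weeks Stip1, Hspa4l and Dnajb5 were the genes called, each lower (-0.45, -0.75 and -0.58 on the log2 scale), where 1.13% of tested genes were called lower. The heat shock factor list, with 4 tested genes, had no call in any of the 10 comparisons, and Hsf1 itself, the main factor of the heat-shock response, changed by -0.23, edgeR adjusted p = 0.267 on AL and by -0.23, edgeR adjusted p = 0.172 under DR at the level of messenger RNA. Of 23 RNA-binding and splicing genes linked to temperature, 0 were called at 22 weeks on AL. Srsf5 (0.32) and Rbmx (0.34) were higher in the genotype contrast under DR, where 5.97% of all tested genes were called higher.

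**Figure D5:**
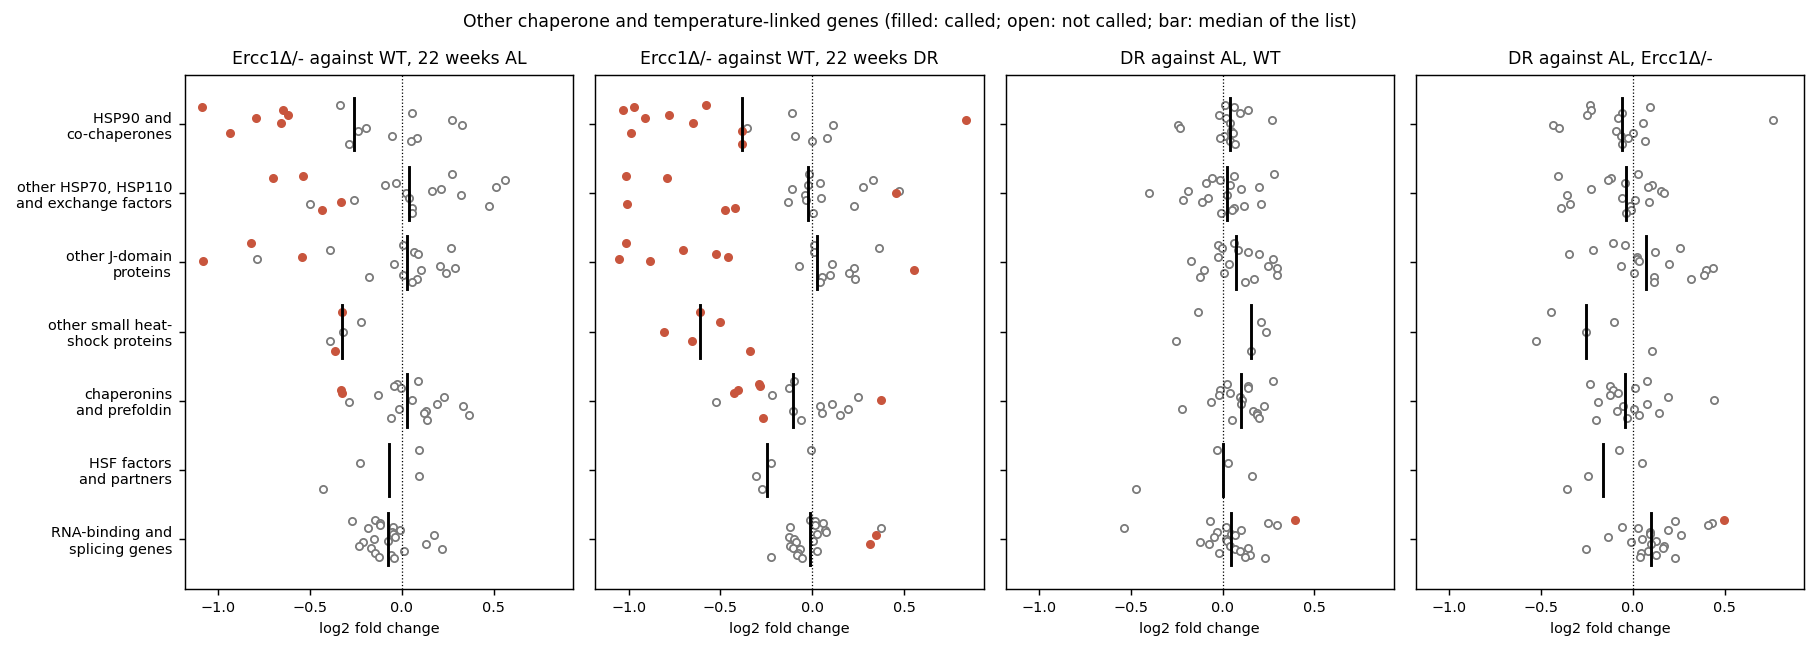
Log2 fold changes (x axis) of the tested genes of 7 lists (y axis) for the genotype contrast at 22 weeks on AL and under DR and for the diet contrast in each genotype. Filled red points passed the call, open grey points did not, and the black bar is the median of the list: the medians of the HSP90 and small heat-shock lists lie left of 0 in both genotype panels, and in the diet panels 1 gene (Clk1) is filled in each genotype.

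For diet, 1 of the 23 RNA-binding and splicing genes was called in each genotype, and none of the genes of the other 6 lists, where 1.28% of all tested genes were called in WT and 1.64% in Ercc1Δ/-. Clk1, a kinase of splicing factors whose activity is known to depend on temperature, was higher under DR in WT (1134 ± 78.0 against 869 ± 64.0 normalized counts, SD, n = 5 and 4, log2 fold change 0.39, edgeR adjusted p = 0.0321) and in Ercc1Δ/- (1124 ± 182 against 793 ± 34.0, n = 5 and 4, log2 fold change 0.49, edgeR adjusted p = 0.00835). With both genotypes averaged, 5 genes of the 7 lists were called, where 3.73% of all tested genes were. Besides Clk1, its relatives Clk3 (0.34, edgeR adjusted p = 0.0153) and Clk4 (0.35, edgeR adjusted p = 0.0174) were higher as well, as was the J-domain gene Dnajc21 (0.34, edgeR adjusted p = 0.0209), while the small heat-shock gene Cryab was lower (-0.29, edgeR adjusted p = 0.043).

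Other properties of the libraries moved with genotype in some of the same contrasts. Of 10 smooth muscle marker genes, 8 were lower in Ercc1Δ/- at 22 weeks on AL, 9 under DR and 2 at 6 weeks (6.16%, 7.03% and 1.13% of tested genes). Their summed level at 22 weeks was 32460 to 38733 CPM in WT AL against 16961 to 26259 in Ercc1Δ/- AL. Of 10 macrophage marker genes, 8 were higher on AL and 6 under DR (5.88% and 5.97% of tested genes), with summed levels of 286 to 426 in WT AL and 633 to 1159 in Ercc1Δ/- AL. None of these marker genes was at 0 in any group. The mitochondrial share of counts was 2.47% to 3.72% in WT AL and 5.37% to 5.96% in Ercc1Δ/- AL at 22 weeks, but its ranges overlapped under DR (2.88% to 5.12% and 4.04% to 9.22%), and the medians at 6 weeks were 4.33% and 4.47%. Of 10 endothelial marker genes, 1 was higher on AL and 6 were higher under DR (again 5.88% and 5.97% of tested genes), where their summed level was 474 to 978 CPM in WT and 949 to 1539 CPM in Ercc1Δ/-. Their part in the lower heat-shock counts was not tested. Within groups, 1 of 120 relations between a member and depth, read shares or a list score passed adjustment: Hspd1 went against the smooth muscle score (r = -0.776, rho = -0.76, adjusted permutation p = 0.0276 and 0.0108, and r = -0.652 without the 2 farthest libraries). With log2 total counts as a covariate, 5 members were called at 22 weeks on AL (5.85% of genes), namely Hsph1, Hspa8, Hsp90aa1 and Hspb1 as lower and Rbm3 as higher, and 3 under DR (3.66% of genes), namely Hspa1a, Hspa1b and Hspb1 as lower.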

How the data were processed

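RNA of mouse aortic arches was sequenced by the authors with unique molecular identifiers. Per the labels and the submitters' processing notes, reads were demultiplexed with bcl2fastq 2.20, aligned to GRCm39 with STAR 2.7.10a, deduplicated with UMI-tools 1.1.2 and counted per gene with HTSeq 2.0.2, and the authors tested with DESeq2 1.34.0. The strand setting of the counting was not given in the sources used here. The deposited table held whole-number counts for 29 samples and 5 summary rows, which stayed out of library sizes. Reads without a gene were 12.6% to 18.7% and reads without a unique place 3.66% to 7.06% of the 28 libraries used. No column went unused.

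A gene was tested where over 10 of the 28 libraries each held over 10 counts, which 12353 genes met. Libraries were scaled with TMM and fitted with edgeR 4.0.16 (quasi-likelihood, R 4.3.3) on group and sex, the age contrasts and the AL genotype contrasts in the 18 libraries of AL mice and the diet and DR contrasts in the 18 libraries of 22 weeks. A call needed an adjusted p (Benjamini-Hochberg, over all tested genes) not above 0.05 and a change of 1.2-fold or more. For the interactions of genotype with age and with diet no limit on the fold was set. Normalized counts refer to a library of 3703241 counts, and log2 CPM used a prior count of 2. Correlations used within-group permutations (numpy 2.4.6, scipy 1.17.1, Python 3.11.15). The pipeline was tested on simulated data. Ranges apart means that no sample of one group reached the range of the other.

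Members and lists were chosen with earlier results of these data known. Named were the 10 members, Ercc1, on each other list up to 3 genes per direction with the smallest p among those called for diet or for genotype at 22 weeks on AL, for Cirbp, Rbm3, Hsph1, Hspa8 and Hsp90aa1 the 3 genes with the highest correlation, and genes that overlap or copy a member. Some genes that this rule names are not reported here. Replicates were separate mice. Alternatives were DESeq2 1.42.0, RLE size factors, no filter, thinning to 921167 counts, sample 003 added, no sex term, other sets of groups in the fit, the earlier edgeR dispersion method, both Hspa1 genes summed and each replicate left out.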

Additional observations from a re-analysis of the deposited data

Results flagged for a closer look

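For Hspa1b, 1 of the 5 Ercc1Δ/- AL libraries of 6 weeks (002) stood at 588.8 normalized counts, far above the next at 370.9. The gap was 0.744 of the range of that group, above Dixon's critical value of 0.71. It was the 1 hit among 60 groups of values tested, and chance gives about 1 in 20.

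Sample 003, a WT AL library of 22 weeks that entered no comparison, held 400410 counts, of which 10.5% were mitochondrial. Its counts were scaled to the mean library by its total alone, without a TMM factor. On that scale they exceeded the normalized counts of the 4 other WT AL libraries of 22 weeks for Cirbp (268.2), Rbm3 (583), Hspa1a (1646) and Hspa1b (2728), from 29, 63, 178 and 295 counts. The highest compared libraries were close for Cirbp (254.6) and Hspa1b (2678). Because the scales differ and the counts are few, a higher level in sample 003 is uncertain.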

How the results depend on the processing

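No paired analysis was possible because each mouse gave 1 sample and the groups share no replicate numbers. Over the 10 members and 10 comparisons no alternative reversed a direction of a called difference: 2795 results kept their side of the threshold, 40 lost the call and 15 gained it. The number of members called moved beyond 1.5 times in these cases, whose cause was not tested. For genotype at 6 weeks on AL it was 2 with DESeq2 and 2 without a filter, in place of 1. For age in WT it was 2 with DESeq2 and 1 with sample 003 added, in place of 0, and for age in Ercc1Δ/- 1 with only the compared groups fitted, in place of 0. For genotype under DR it was 3 in place of 9 with log2 total counts as a covariate, chosen after seeing the data, where calls over all genes fell from 1605 to 452. Since totals do not overlap between genotypes within a diet, this fit cannot tell depth from genotype. The DR calls lost in it went from -1.16 to -1.22 (Dnajb1), -1.41 to -1.15 (Hsph1) and -0.75 to -0.69 (Hspa8) on the log2 scale. The others went from -1.05 to -0.81 (Hsp90aa1), -0.43 to -0.23 (Hspd1) and 0.59 to 0.54 (Cirbp). At 22 weeks on AL that covariate gave 5 in place of 7 (723 of all genes in place of 1487). Leaving out 1 replicate at a time gave 1 to 2 members at 6 weeks, 0 to 1 for age in WT, 0 to 1 for age in Ercc1Δ/-, 6 to 7 for genotype at 22 weeks on AL and 7 to 9 for genotype under DR. The correlations that passed fell from 10 to 3 when centred on group and sex, where permutation within group and sex allowed fewer arrangements.

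The genes called on the 7 pathway lists together moved with DESeq2 from 3 to 7 at 6 weeks, from 0 to 4 for age in WT, from 0 to 2 for the interaction with age, from 1 to 2 for diet in WT, from 1 to 6 for diet in Ercc1Δ/- and from 5 to 8 for diet averaged. Without a filter they were 2 for age in WT, 1 for the interaction with age and 3 for diet in Ercc1Δ/-. Fitting only the compared groups gives no value for the interactions or the averaged diet effect. With all libraries thinned to the smallest total, the calls of Dnajb1 on AL and of Cirbp and Hspd1 under DR were lost. HSP70 pair members share sequence, and the RefSeq windows covered 7 of the 10 members.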

Other observations

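Genes that respond to glucocorticoids or fasting were counted in the same contrasts. Of 17 tested genes, 2 were higher in Ercc1Δ/- at 22 weeks on AL, the metallothioneins Mt2 (log2 fold change 1.82 in edgeR) and Mt1 (1.25), which bind metals, and 8 were higher in Ercc1Δ/- than in WT mice on DR. Among all tested genes 5.88% were called higher on AL and 5.97% under DR. Between DR and AL, 0 of the 17 were called in WT and 1 in Ercc1Δ/-, where 1.28% and 1.64% of tested genes were. Of 20 clock genes, Bmal1, the core activator, was higher in Ercc1Δ/- at 22 weeks on AL (1.90, edgeR adjusted p = 0.0441). Its normalized counts were low (means 20.0 against 6.90) and the ranges of the genotypes overlapped. Hlf (-1.06), Per3 (-0.75) and Per2 (-0.68) were lower in the same contrast, where 6.16% of tested genes were called lower. Ciart (-2.37), Bhlhe41 (-1.14) and Hlf (-0.74) were lower under DR in WT mice, each with overlapping ranges, where 0.939% of tested genes were called lower. The hour of collection of each mouse is not given in the sources used here.

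Of 24 tested immediate early genes, Maff was higher (0.54) and Fosl2 lower (-0.47) in Ercc1Δ/- at 22 weeks on AL. Among all tested genes 5.88% were called higher and 6.16% lower in this contrast, so these calls are near that share. Of the markers of other cell types in this contrast, the 1 endothelial gene called higher was Emcn (0.97), 3 of 10 fibroblast genes were lower (Col1a1, -0.65, Col1a2, -0.67, and Pi16, -0.74), 1 of 6 striated muscle genes was higher (Tnnt2, 1.96), 1 of 5 blood cell genes was higher (Ptprc, 1.74) and 0 of 10 fat cell genes were called. Lep, the fat cell hormone leptin, was lower under DR in WT mice (-3.09), where 0.939% of tested genes were called lower. Its normalized counts were low (means 4.23 under DR against 39.2 on AL).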
